A study of Mus musculus with 6 samples.

Results

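The clustered protocadherin genes lie in a row on mouse chromosome 18 as the *Pcdha*, *Pcdhb* and *Pcdhg* clusters. ATAC-seq intervals, stretches of chromatin open to the transposase, were assigned to them when the nearest protein-coding transcription start site (TSS, GENCODE M21 basic, mm10) within 50 kb of the strongest summit belonged to a gene whose symbol begins with *Pcdha*, *Pcdhb* or *Pcdhg*. By this rule 68 of 190365 intervals were members, 33 of 82885 in the parent list and 35 of 107480 in the ΔSRR2–18 list. The question was whether neural stem/progenitor cells (NSPCs) that lack SRR2–18, an enhancer cluster downstream of the neural transcription factor gene *Sox2*, open the same protocadherin promoters as the parent cells.

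Both lines were F1 hybrids of 129S1 and Cast mice that carried the Sox2-mCherry reporter on the 129 allele, and NSPCs were derived from embryonic stem cells and grown with EGF and bFGF. The parent line, Clone 5B, had no deletion, and the ΔSRR2–18 line, Clone 47D, had lost SRR2–18 from both alleles. Each line contributed 3 cultures but was 1 clone, so genotype and clone cannot be told apart. The peak lists were pooled over the cultures of a line, which leaves no replicate error and allows no test between the lines.

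Each variable exon of the protocadherin clusters has its own promoter, and single neurons are known to use a few of these promoters each, which gives every cell its own set of adhesion proteins. In the α and γ clusters the variable exons are spliced to constant exons shared by the whole cluster, whereas each β gene is a single exon. The A- and B-type promoters are the ones chosen cell by cell, with CTCF, cohesin and distant enhancers taking part, and most C-type genes (*Pcdhac1*, *Pcdhac2*, *Pcdhgc3*, *Pcdhgc4* and *Pcdhgc5*) are used in a more constitutive manner. A population of cells therefore shows a mixture of choices.

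The parent list rested on more reads. Its lowest local background at a summit was 38.8 reads and that of the ΔSRR2–18 list 19.7, a ratio of 1.98. Fold enrichment is the reads at a summit over the local background, with 1 read added to each. Because of the unequal depth it is given beside its rank within its own list, where "top 1%" is strongest. Parent −log10 p values were also scaled, by recomputing them from reads and background divided by this ratio. The scaled value is called "equal depth" in what follows, although it matches only the lowest backgrounds, and the 1st percentiles of the lists after scaling were 21.9 in the parent and 32.2 in ΔSRR2–18. Promoters of 6 NSPC marker genes (*Nes*, *Sox1*, *Sox2*, *Pax6*, *Vim* and *Fabp7*, chosen after the lists had been seen) had an interval in both lists.

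Both genotypes had intervals in all 3 clusters, in different proportions. The *Pcdha* cluster had 9 intervals in the parent list and 12 in the ΔSRR2–18 list, the *Pcdhb* cluster had 13 and 3, and the *Pcdhg* cluster had 11 and 20. In the optimal lists, a more permissive selection of reproducible peaks by the authors, *Pcdhb* had 13 and 6. The *Pcdhg* counts were 5 and 13 when the TSS had to lie within 10 kb, and 2 and 9 when intervals went to the nearest gene of any type. Of the parent intervals, 13 of 33 (39.4%, 95% Wilson interval 24.7 to 56.3) overlapped no ΔSRR2–18 interval, against 52.3% of the whole parent list. Of the ΔSRR2–18 intervals, 16 of 35 (45.7%, 30.5 to 61.8) overlapped no parent interval, against 63.1% of the whole ΔSRR2–18 list. Both shares were below those of the lists they came from, but the parent Wilson interval includes the 52.3% of its list. The shares also rest on unlike mixes of promoter and distal intervals. Summits within 1 kb of a TSS made up 17 of the 33 parent members and 18 of the 35 ΔSRR2–18 members. In the whole lists they made up 13835 of 82885 and 14692 of 107480 intervals. The totals therefore do not show that members were less genotype-specific than intervals of their kind. Wilson intervals cover counting error only, and neighbouring promoters of a cluster are not independent.

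The genotype-specific intervals were divided unevenly between the clusters. *Pcdhb* held 10 of the parent-only intervals and none of the ΔSRR2–18-only ones (0 of 3, Wilson upper bound 56.1%). *Pcdhg* held 2 parent-only and 12 ΔSRR2–18-only intervals, and *Pcdha* held 1 and 4.

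Promoters and distal sites behaved differently when set beside the whole lists. Among intervals with a summit within 1 kb of a TSS, 8 of 17 in the parent list (47.1%, 26.2 to 69.0) were specific to that list, and all 8 were *Pcdhb* promoters. Across all such promoter intervals of the parent list the share was 8.91%. In the ΔSRR2–18 list 9 of 18 promoter intervals (50.0%, 29.0 to 71.0) were specific, 7 of them in *Pcdhg* and 2 in *Pcdha*, against 14.0% of all promoter intervals. Farther than 1 kb from a TSS, 5 of 16 parent intervals (31.2%) and 7 of 17 ΔSRR2–18 intervals (41.2%) were specific, against 61.0% and 70.9% of all distal intervals. The protocadherin promoters thus were genotype-specific more often than promoters at large, and the distal intervals less often than distal intervals at large, as a description of these lists. Strength differed as well. By −log10 p the median member promoter ranked in the top 74.7% of the parent list, against 13.2% for all its promoter intervals. In ΔSRR2–18 these ranks were 73.0% and 18.0%. Member distal intervals had medians of 26.1% in the parent and 44.9% in ΔSRR2–18, against 56.4% and 54.6% for all distal intervals. The part of strength in these shares was not tested.

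**Figure D1:**
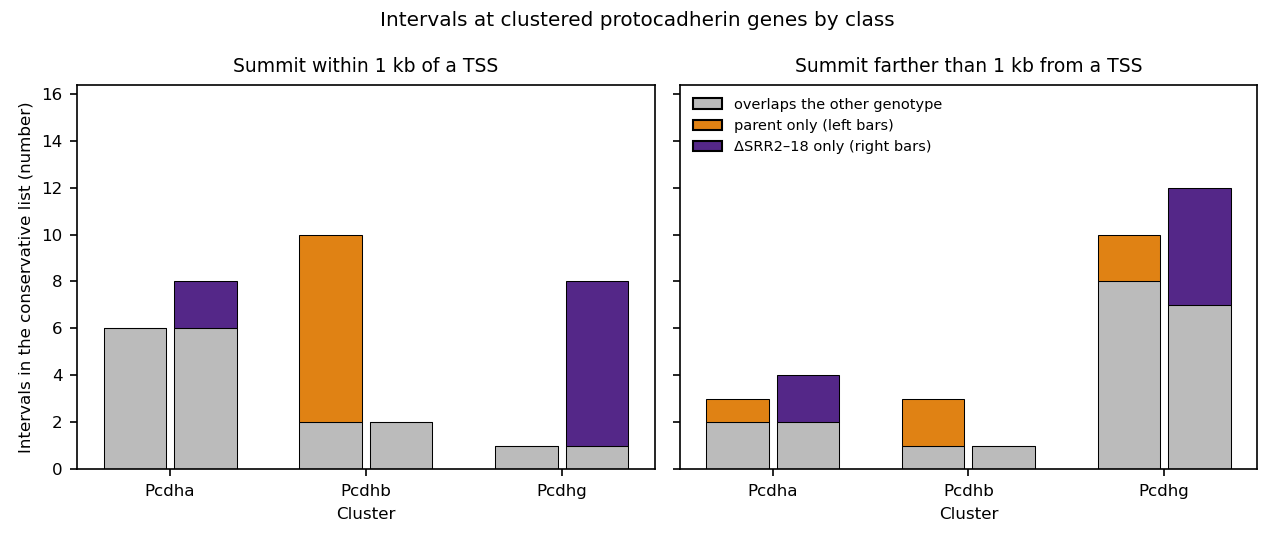
Number of intervals (y axis) in each cluster (x axis) by class, for summits within 1 kb of a TSS (left) and farther away (right). Left bars of each pair are the parent list and right bars the ΔSRR2–18 list, grey is shared with the other genotype and colour is specific to one. Parent-only promoters are 8 *Pcdhb* intervals and ΔSRR2–18-only promoters are 7 *Pcdhg* and 2 *Pcdha* intervals.

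Counted by gene, 17 of 57 clustered protocadherin genes (29.8%) had a promoter interval in the parent list and 18 (31.6%) in the ΔSRR2–18 list, against 60.6% and 63.7% of all 21951 protein-coding genes. The promoter was open in both lists for 9 genes (15.8%, against 57.8% of all genes), in the parent list only for 8 (14.0%, against 2.76%) and in the ΔSRR2–18 list only for 9 (15.8%, against 5.94%). No interval was listed in either genotype for the other 31 genes (54.4%). The totals of 17 and 18 stayed close under most alternatives, for example at 15 and 16 with an IDR score of 830. They were 17 and 23 in the optimal lists, and 12 and 18 with both lists held to a scaled −log10 p of 50. When the longer list was shortened to the length of the shorter, they were 17 and 10 by −log10 p and 17 and 14 by fold enrichment.

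**Figure D2:**
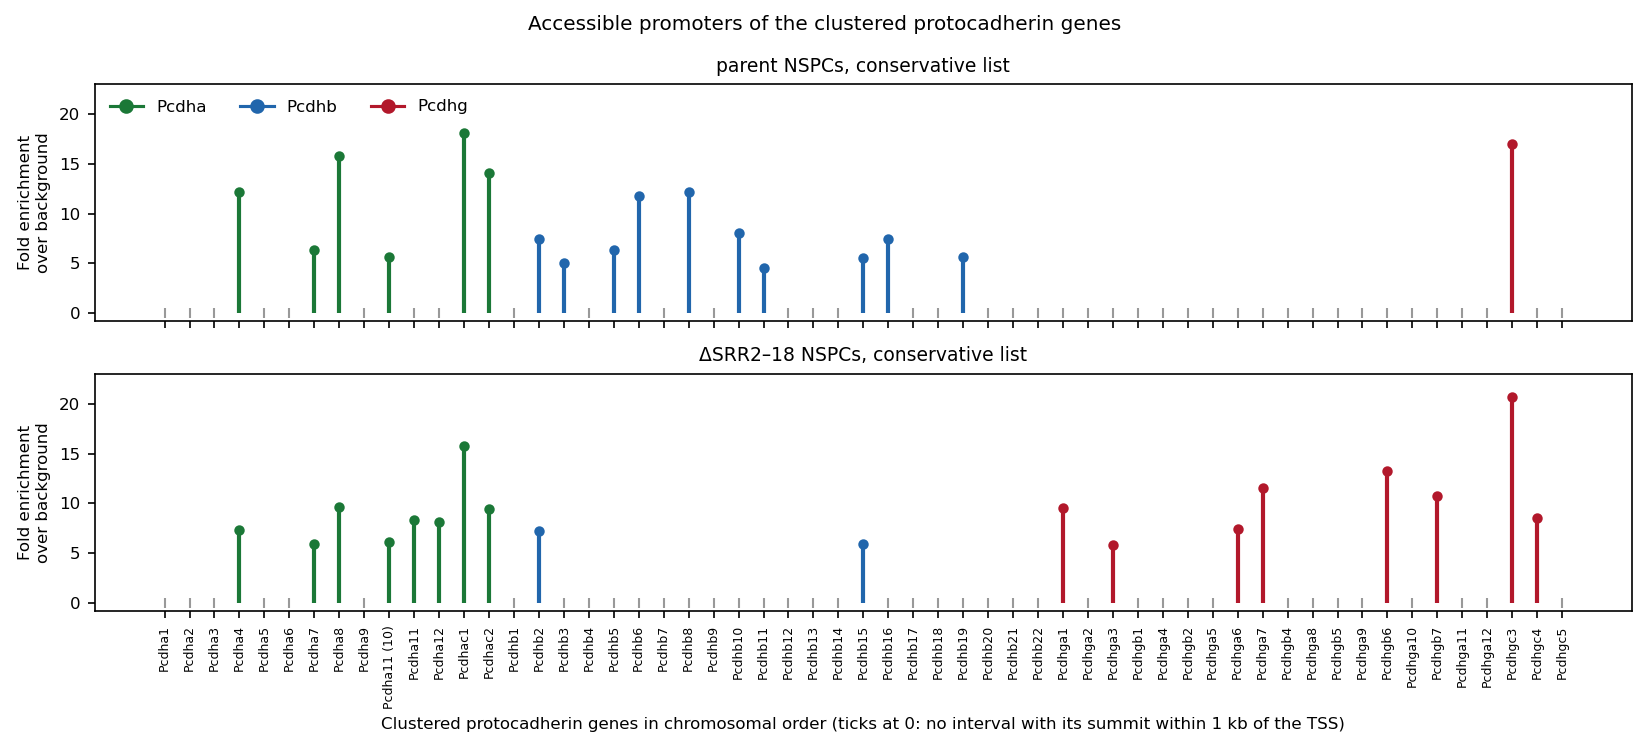
Fold enrichment over local background (y axis) of the strongest interval with its summit within 1 kb of the TSS of each clustered protocadherin gene, in chromosomal order (x axis), in the parent list (top) and the ΔSRR2–18 list (bottom). Grey ticks mark genes with no such interval, and "Pcdha11 (10)" is the gene model that RefSeq names *Pcdha10*. The parent list has 10 *Pcdhb* promoters and 1 *Pcdhg* promoter, and the ΔSRR2–18 list has 2 and 8.

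In the β cluster, whose TSSs run over chr18:37264938-37517871, 10 of 22 promoters (45.5%, 26.9 to 65.3) were open in the parent list and 2 (9.09%, 2.53 to 27.8) in the ΔSRR2–18 list. These genes encode single-exon cadherins of the cell surface. The 8 parent-only promoters in the conservative lists were *Pcdhb3*, *Pcdhb5*, *Pcdhb6*, *Pcdhb8*, *Pcdhb10*, *Pcdhb11*, *Pcdhb16* and *Pcdhb19*. They made up 36.4% of the β genes, against 2.76% of all protein-coding genes that were open in the parent list only.

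The strongest parent-only promoter was that of *Pcdhb8* (chr18:37354940-37355623, summit 190 bp upstream of the TSS), with 484 reads over a background of 38.8, a fold enrichment of 12.2 (top 38.5%). *Pcdhb6* (chr18:37333655-37334771, 146 bp upstream) followed closely, with 468 reads and a fold enrichment of 11.8 (top 40.4%). *Pcdhb10* (chr18:37411493-37412730) reached 8.03-fold and *Pcdhb16* (chr18:37477593-37478444) 7.50-fold, both with the summit within 25 bp of the TSS. These 4 promoters lay in the middle of the parent list by fold enrichment, between the top 38.5% and the top 63.7%.

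The other parent-only promoters were weaker. *Pcdhb5* had a fold enrichment of 6.37, with its summit 382 bp past the TSS, in the coding sequence. *Pcdhb19* had 5.65 and *Pcdhb3* 5.02, both at the TSS. *Pcdhb11*, the weakest, had 181 reads and a fold enrichment of 4.57 (top 87.3%), 399 bp past the TSS, in the coding sequence.

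*Pcdhb2* and *Pcdhb15* were the β promoters open in both genotypes. *Pcdhb2* had a fold enrichment of 7.45 in the parent list and 7.21 in the ΔSRR2–18 list, with 296 and 148 reads at the summit. *Pcdhb15* had 5.60 and 5.91, with 222 and 121 reads. By −log10 p they ranked in the top 75.0% and 87.8% of the parent list and in the top 83.8% and 92.4% of the ΔSRR2–18 list. Both were thus weak members of either list, weaker in fold enrichment than the parent-only *Pcdhb6* and *Pcdhb8*.

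Because the parent list was the deeper one, each parent-only promoter was also set against the ΔSRR2–18 list at equal depth. Their scaled −log10 p ran from 31.9 to 173, and the 1st and 5th percentiles of the ΔSRR2–18 list were 32.2 and 45.9. *Pcdhb11* and *Pcdhb3* lay near the bottom of that list, with 0.959% and 2.53% of its intervals below them. *Pcdhb19* and *Pcdhb5* were above 5.54% and 9.94% of its intervals, *Pcdhb16* and *Pcdhb10* above 17.2% and 20.7%, and *Pcdhb6* and *Pcdhb8* above 40.7% and 42.4%. At equal depth, then, *Pcdhb3* and *Pcdhb11* stood at the limit of what the ΔSRR2–18 list holds, and 4 of the 8 exceeded at least 10% of its intervals. The part of depth in the absence of each promoter from the ΔSRR2–18 list was not tested further.

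The optimal lists told *Pcdhb11* and *Pcdhb19* apart from the rest. Both had an interval in the ΔSRR2–18 optimal list, at a fold enrichment of 3.97 and 5.91, and the other 6 had none in either ΔSRR2–18 list. At *Pcdhb19* the ΔSRR2–18 value was above the parent fold enrichment of 5.65, and its −log10 p of 53.6 was above the scaled parent value of 47.7. Its parent-only class thus does not mean a weaker signal in ΔSRR2–18. The parent optimal list in turn lacked *Pcdhb3* and *Pcdhb11* and added *Pcdhb1* (4.27-fold) and *Pcdhb4* (5.32-fold). Between the optimal lists, *Pcdhb11* was therefore open in ΔSRR2–18 only. The optimal lists held 10 β promoters in the parent line and 4 in the ΔSRR2–18 line.

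**Figure D3:**
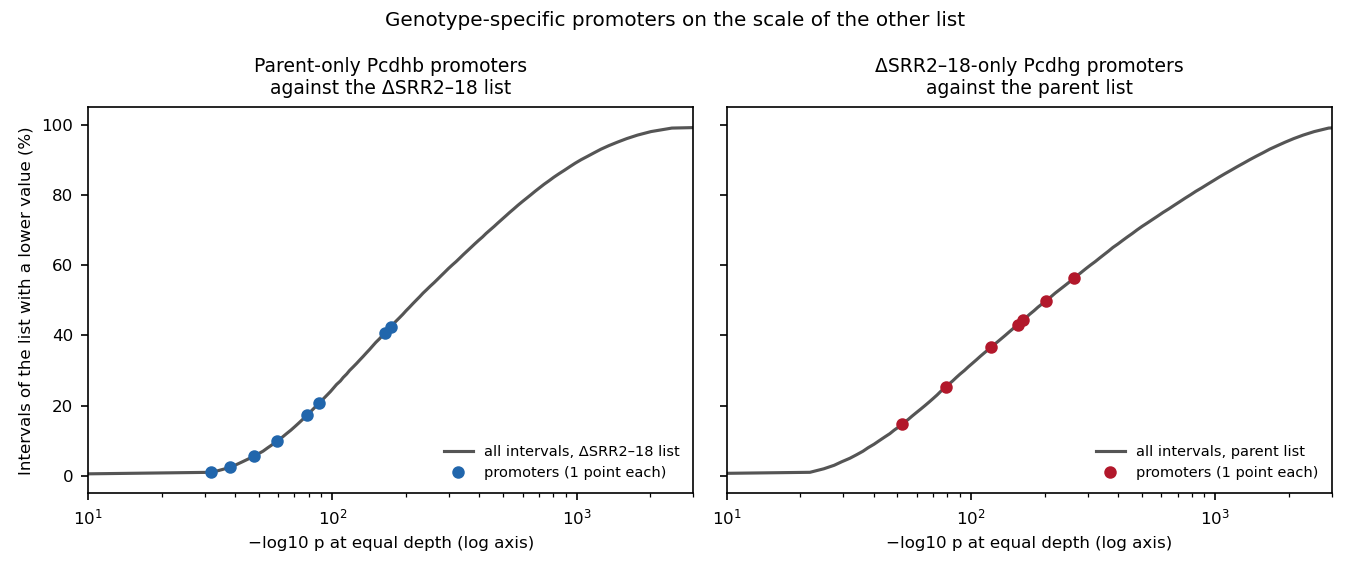
Percent of all intervals of the other genotype's list with a lower value (y axis) against −log10 p at equal depth (x axis, logarithmic); the grey line is the whole list and each point is 1 genotype-specific promoter. Parent-only *Pcdhb* promoters lie between 0.959% and 42.4% of the ΔSRR2–18 list, and ΔSRR2–18-only *Pcdhg* promoters between 14.7% and 56.3% of the parent list.

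In the γ cluster, whose TSSs run over chr18:37661793-37819513, the pattern was the opposite. None of 18 A- and B-type promoters was open in the parent list (0%, Wilson upper bound 17.6%), and 6 (33.3%, 16.3 to 56.3) were open in the ΔSRR2–18 list. These were *Pcdhga1*, *Pcdhga3*, *Pcdhga6*, *Pcdhga7*, *Pcdhgb6* and *Pcdhgb7*, which encode γ-protocadherins that differ in their extracellular domains and share a cytoplasmic end. Among all protein-coding genes 5.94% were open in the ΔSRR2–18 list only.

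*Pcdhgb6* (chr18:37741857-37742604, summit 45 bp upstream of the TSS) was the strongest of the 6, with 272 reads over a background of 19.7, a fold enrichment of 13.2 (top 36.0%). *Pcdhga7* (chr18:37714613-37715309) had a fold enrichment of 11.5 and *Pcdhgb7* (chr18:37751491-37752117) one of 10.7. *Pcdhga1* (chr18:37661564-37662288) reached 9.49, *Pcdhga6* 7.36 and *Pcdhga3* 5.81. The summits of *Pcdhga6* and *Pcdhgb7* lay 207 and 234 bp past the TSS, in the coding sequence, and the other 4 within 65 bp of the TSS.

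None of the 6 overlapped an interval in either parent list. At equal depth, between 14.7% (*Pcdhga3*) and 49.9% (*Pcdhgb6*) of the parent intervals lay below them. The ΔSRR2–18 optimal list added *Pcdhga4* (4.70-fold) and *Pcdhga5* (5.03-fold), which brought the count of A- and B-type γ promoters to 8, while the parent optimal list held none.

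One γ element outside the list of protein-coding promoters was open in both lines. It lay 3.91 kb upstream of the *Pcdhga12* TSS in the parent list and 3.92 kb upstream in the ΔSRR2–18 list, and 128 and 143 bp upstream of *Pcdhgb8*, which GENCODE M21 classes as a polymorphic pseudogene. Its fold enrichment was 19.6 in the parent list (chr18:37761224-37762207, 1284 reads) and 8.76 in the ΔSRR2–18 list (180 reads). By −log10 p it ranked in the top 26.1% and the top 73.5%. With *Pcdhgb8* counted as a gene, the parent list was not without an open B-type γ promoter, and that one ranked higher in its list by fold enrichment (top 10.8%) than *Pcdhgb6* did in the ΔSRR2–18 list (top 36.0%).

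The C-type genes of the γ cluster differed from one another. *Pcdhgc3* was open in both lists with a fold enrichment of 17.0 (3622 reads) in the parent and 20.7 (2409 reads) in ΔSRR2–18. By −log10 p its rank was the top 8.55% of the parent list and the top 1.52% of the ΔSRR2–18 list, the highest of all members in the latter. *Pcdhgc4*, required for the survival of many interneurons, was open in the ΔSRR2–18 list only (chr18:37814289-37815792, 8.54-fold, −log10 p of 265, above 56.3% of the parent list). *Pcdhgc5* had no promoter interval in either list.

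The local background was raised around these C-type genes, in both lists. At *Pcdhgc4* it was 2.77 times the lowest background of the ΔSRR2–18 list. At the parent intervals on either side, 1.93 kb past the *Pcdhgc3* TSS and 4.78 kb past the *Pcdhgc5* TSS, it was 5.44 and 10.7 times the lowest. The interval past *Pcdhgc3* had 779 reads over 211. The part of the background in the missing *Pcdhgc4* promoter was not tested.

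In the α cluster, with TSSs over chr18:36930184-37143503, the genotypes shared most promoters. Both C-type genes and 4 of 12 A-type promoters were open in both lists: *Pcdha4*, *Pcdha7*, *Pcdha8* and the gene that GENCODE lists as a first *Pcdha11* (ENSMUSG00000007440.10) and RefSeq names *Pcdha10*. The ΔSRR2–18 list held 2 more, *Pcdha11* (chr18:37010536-37011134, 8.28-fold) and *Pcdha12* (chr18:37019924-37020437, 8.13-fold). Both had the summit within 75 bp of the TSS, were absent from both parent lists and stood above 30.6% and 29.9% of the parent intervals. No α promoter was parent-only. The order turned when the lists were made equally long by −log10 p, with 4 A-type α promoters in the parent list and 2 in the ΔSRR2–18 list.

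By fold enrichment the 4 shared A-type promoters ranked higher in the parent list. *Pcdha8* had a fold enrichment of 15.8 (top 23.6%) in the parent and 9.58 (top 55.3%) in ΔSRR2–18. *Pcdha4* had 12.2 (top 38.2%) and 7.26 (top 71.9%). *Pcdha7* had 6.40 (top 71.9%) and 5.86 (top 83.1%), and *Pcdha10* had 5.62 (top 78.2%) and 6.15 (top 80.8%). The first pair were thus of middling strength in the parent list and the second pair weak in both. At *Pcdha7* and *Pcdha8* the summit lay between 552 and 614 bp past the TSS, in the coding exon, in both lists.

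Of the C-type α genes, *Pcdhac1* was among the stronger members in both lists and *Pcdhac2* in the parent list. *Pcdhac1* had a fold enrichment of 18.1 (top 15.3%) in the parent and 15.8 (top 25.3%) in ΔSRR2–18. *Pcdhac2* had 14.1 (top 30.2%) and 9.42 (top 56.3%, where the median of the ΔSRR2–18 members was 60.8%). It had 2413 and 470 reads and a background of 4.39 and 2.49 times the lowest of the list. By −log10 p its rank was the top 17.3% in the parent and the top 42.8% in ΔSRR2–18.

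Distal intervals near the α cluster included the members of highest fold enrichment. Enhancers of the α genes are known within the constant part of the cluster and beyond its end, between the α and β genes. An interval 29.0 kb past the *Pcdhac2* TSS had a fold enrichment of 24.7 (top 2.05%) in the parent and 21.5 (top 8.53%) in ΔSRR2–18. Another 35.0 kb past it had 18.3 (top 14.6%) and 24.0 (top 4.14%). The last, between the clusters and 46.6 kb upstream of *Pcdhb1*, had 18.2 (top 15.0%) and 26.8 (top 1.50%), the latter the highest fold enrichment of all members. These 3 sites were open in both lines, and by fold enrichment 2 of them ranked higher in ΔSRR2–18.

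Several α and β distal sites were specific to a line. ΔSRR2–18 alone had intervals 5.98 kb (12.4-fold) and 45.7 kb (20.5-fold, −log10 p of 545, above 72.7% of the parent list) past the *Pcdhac2* TSS, the latter just beyond the end of the α genes. The parent alone had a weak interval 19.5 kb past it (4.92-fold), one 9.06 kb upstream of *Pcdhb2* (7.10-fold) and one 47.5 kb upstream of *Pcdhb1* (4.95-fold). The first of these was missing from the parent optimal list. The last was in the ΔSRR2–18 optimal list at a higher fold enrichment than in the parent (6.87-fold). Its −log10 p there was 73.0, against a scaled parent value of 66.6, so its class does not mean a weaker signal in ΔSRR2–18. In the γ cluster, ΔSRR2–18 alone had an interval 5.90 kb upstream of *Pcdhga1* (chr18:37655443-37656114, 15.6-fold), in an exon of the long noncoding RNA gene *3222401L13Rik*.

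Most γ distal intervals lay past the last promoter, that of *Pcdhgc5*. A control region of the β and γ genes is known downstream of the γ cluster, and the neighbouring gene there is *Diaph1*, a formin, so nearness to *Pcdhgc5* does not make an interval part of that gene. The parent list had 8 intervals from 4.78 to 32.7 kb past the TSS, 7 of them shared, and the ΔSRR2–18 list had 10 from 4.53 to 36.6 kb, 6 of them shared. Fold enrichments ran from 2.88 to 14.1 and from 2.72 to 13.0.

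The strongest of these by −log10 p lay 30.2 kb past *Pcdhgc5* in the parent (chr18:37849289-37850389), with 6681 reads over 474, a fold enrichment of 14.1 and a rank in the top 2.05%. The overlapping ΔSRR2–18 interval had 1866 reads over 212, a fold enrichment of 8.76 and a rank in the top 9.93%. The interval 16.2 kb past the TSS, in an intron of the constant part, had 11.8 in the parent and 13.0 in ΔSRR2–18. Signal was raised over the whole stretch, where the local background was 6.87 to 12.4 times the lowest in the parent (median 9.68) and 2.34 to 11.2 times in ΔSRR2–18 (median 5.62).

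The parent-only interval here, 10.5 kb past the TSS, had a fold enrichment of 4.22. Of the 4 ΔSRR2–18-only intervals, the one at 5.90 kb had 7.98 and the others, at 28.8, 33.2 and 36.6 kb, had 2.72, 2.77 and 3.66. Those at 5.90 and 33.2 kb overlapped an interval of the parent optimal list. Genotype-specific intervals were thus 1 of 8 and 4 of 10 here, and most of the latter were weak.

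**Figure D4:**
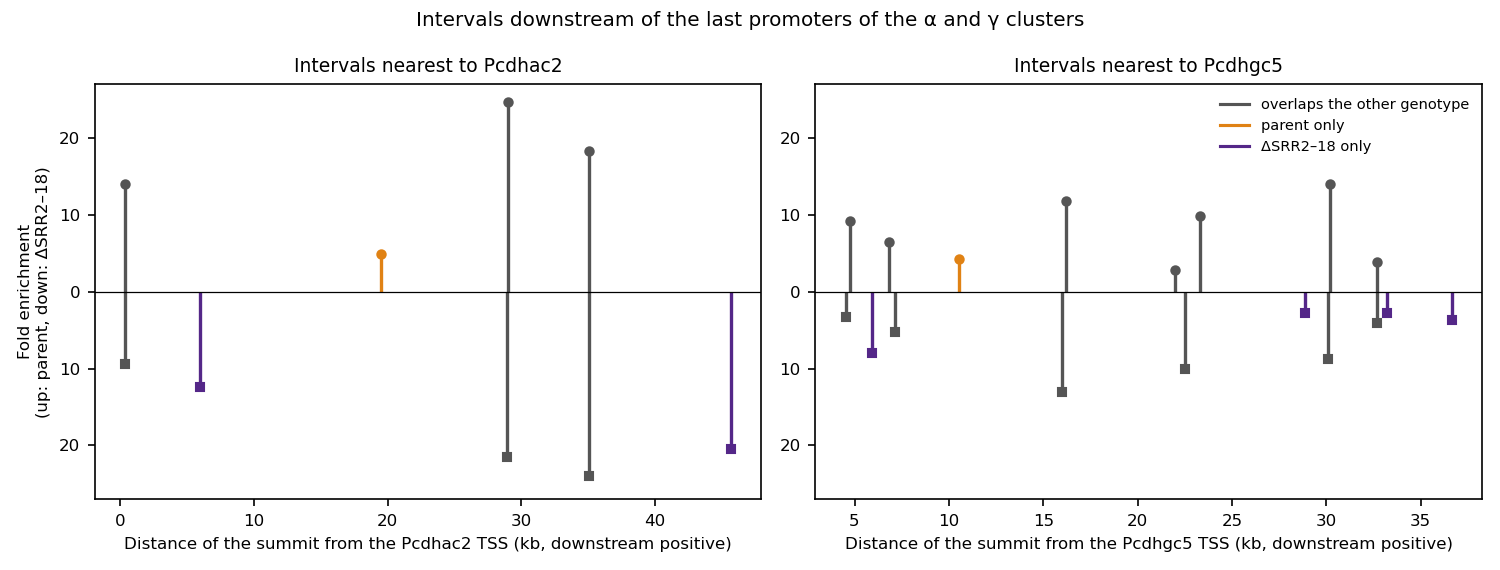
Fold enrichment (y axis; parent upward, ΔSRR2–18 downward) against the distance of the summit from the TSS of *Pcdhac2* (left) or *Pcdhgc5* (right) in kb, for the intervals assigned to these genes. Grey intervals overlap the other genotype, and coloured ones are specific to the parent (orange) or ΔSRR2–18 (purple). The sites 29.0 and 35.0 kb past *Pcdhac2* are strong in both lists, and the one at 45.7 kb is listed in ΔSRR2–18 alone.

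Across the clusters, 21 pairs of intervals overlapped between the genotypes, 20 of them with both intervals assigned to a protocadherin gene. The summits of a pair were a median of 16.0 bp apart, against 18.0 bp over all 40114 pairs. The ΔSRR2–18 interval had the higher rank in its list in 5 of the 21 by fold enrichment (23.8%), in 5 by −log10 p (23.8%) and in 3 by reads (14.3%). Over all pairs these shares were 42.8%, 45.4% and 47.1%. The shared protocadherin intervals thus ranked higher in the parent list for most pairs, 8 of the 9 in *Pcdha* among them. Pairs are not all distinct. The parent *Pcdha4* interval was counted again against a ΔSRR2–18 interval assigned to *Gm42416*. The ΔSRR2–18 interval 22.5 kb past the *Pcdhgc5* TSS was likewise counted against different parent intervals.

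**Figure D5:**
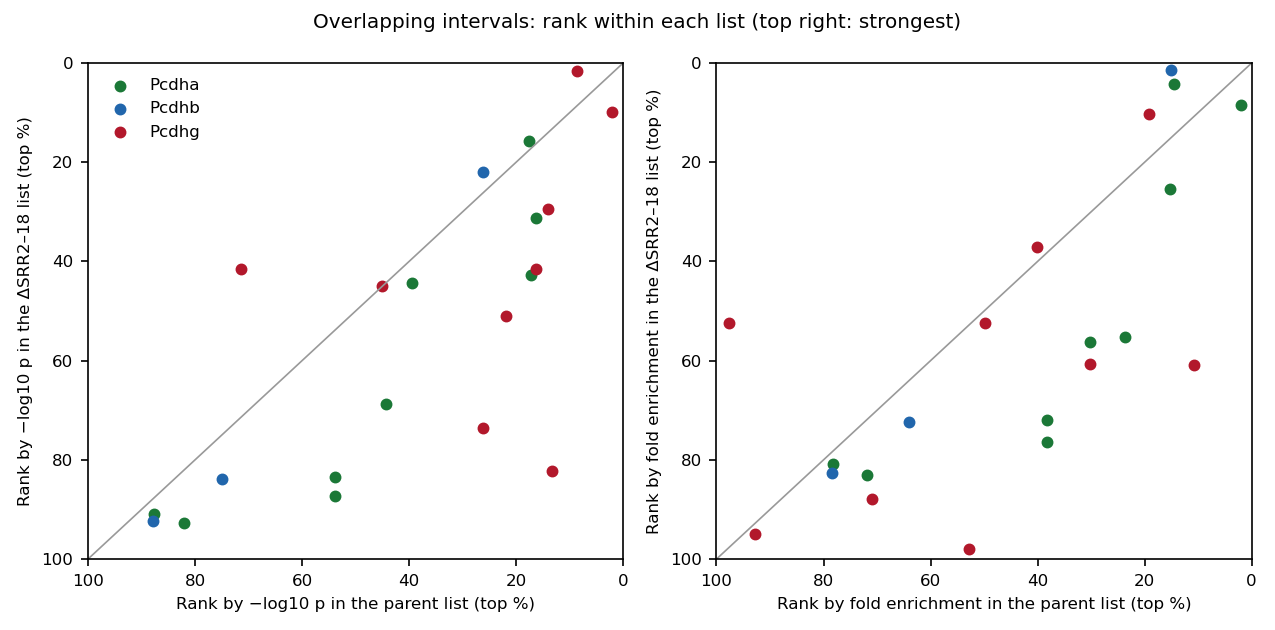
Rank of each overlapping pair in the ΔSRR2–18 list (y axis) against its rank in the parent list (x axis), in percent from the top, by −log10 p (left) and fold enrichment (right); axes are reversed so that the strongest lie at the top right. Points below the grey diagonal rank higher in the parent list. The ΔSRR2–18 interval ranks higher in 5 of 21 pairs on either scale.

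Sequence within 100 bp of the summits was searched on both strands for 4 short motifs, whose matches are a description and not evidence of binding. The CGCT box, a conserved element of protocadherin promoters, was searched for as the word CGCT alone. This word was found in 15 of 17 parent promoter intervals (88.2%) and in 18 of 18 ΔSRR2–18 ones. It was also found in 85.4% and 84.1% of all promoter intervals, a share near that of the members. The word was missing at *Pcdhb5* and *Pcdhb11*, whose summits lay in the coding sequence. It was found at *Pcdha7*, *Pcdha8*, *Pcdhga6* and *Pcdhgb7*, whose summits also lay there. A match of so short a word, above all in coding sequence, need not be the promoter element. The CTCF core was found at *Pcdha7* and *Pcdha8* in both lists, at the summits inside the coding exons, and at the parent interval 47.5 kb upstream of *Pcdhb1*. That made 3 of 33 parent intervals (9.09%, 3.14 to 23.6) and 2 of 35 ΔSRR2–18 intervals (5.71%, 1.58 to 18.6). The whole lists had 4.94% and 3.22%, which lie within these Wilson intervals. No *Pcdhg* interval had a match (0 of 11 and 0 of 20, Wilson upper bounds 25.9% and 16.1%), and the shares of the whole lists lie within these bounds. Only exact matches to the motif pattern were sought, so a CTCF site that departs from it would be missed. The α variable genes are known to carry CTCF sites both in the promoter and in the exon.

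AP-1 sites (TGANTCA), the motif of FOS and JUN proteins, differed between the whole lists, being present in 7.28% of parent and 37.9% of ΔSRR2–18 intervals. At the protocadherin clusters they were found in 0 of 33 parent intervals (Wilson upper bound 10.4%) and in 6 of 35 ΔSRR2–18 intervals (17.1%, 8.10 to 32.7). None was at a promoter (0 of 18, upper bound 17.6%), where 7.32% of all ΔSRR2–18 promoter intervals had one, a share within that bound. The 6 were distal, 2 near *Pcdhac2* (5.98 and 45.7 kb past the TSS) and 4 past *Pcdhgc5*, and made up 35.3% of the 17 distal intervals against 42.8% of all distal ΔSRR2–18 intervals. Of the 16 ΔSRR2–18-only intervals 4 had the motif (25.0%), against 50.7% of all such intervals. These shares rest on unlike mixes of promoter and distal intervals. The 16 were 9 promoter and 7 distal intervals, and all 4 with the motif were distal. In the whole list, 65742 of the 67794 ΔSRR2–18-only intervals were distal.

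SOX motifs (ACAATG) were found in 6 of 33 parent intervals (18.2%, 8.61 to 34.4) and 4 of 35 ΔSRR2–18 intervals (11.4%, 4.54 to 26.0), against 13.0% and 10.6% of the whole lists. Within 50 bp of the summit the shares were 9.09% and 2.86%, against 7.20% and 5.38%. *Pcdha4* had one at its promoter in both lists, and *Pcdhb8* had one in the parent list. The ends of the SOX and AP-1 words can overlap, and the ΔSRR2–18 intervals 4.53 and 30.1 kb past the *Pcdhgc5* TSS had both motifs. With the 100 bp window, the intervals of both member shares include the share of the whole list.

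The clustered promoters were poorer in CpG than promoters at large. Their windows held a median of 6 CpG in the parent list and 7.50 in the ΔSRR2–18 list, against 17.0 for all promoter intervals of either, and their mean GC content was 50.9% and 53.1% against 65.7% and 64.6%. The C-type promoters were richer, with 19 CpG at *Pcdhgc3* in both lists, 19 and 20 at *Pcdhac2*, and 14 at *Pcdhac1* in both and at *Pcdhgc4* in ΔSRR2–18. *Pcdhgb7*, with 15, was the only A- or B-type promoter in that range. Of the 50-base words within 1 kb of a TSS, a median of 98.7% occurred once in the cluster region for genes open in a list and 99.4% for genes open in neither. The medians were 91.8% in *Pcdha*, with a lowest value of 82.2%, and 100% in both *Pcdhb* and *Pcdhg*. The part of repeated sequence in which promoters were listed was not tested.

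The 12 non-clustered protocadherin genes, which encode related adhesion proteins from single promoters scattered over the genome, were mostly open in both lines. Promoter intervals were listed in both for 9 of them and for none in the parent only, and *Pcdh20* alone was ΔSRR2–18-only (11.7-fold). *Pcdh12* and *Pcdh15* had none. The promoters of 13 genes known to act on the clusters (*Ctcf*, the cohesin genes *Rad21*, *Smc1a*, *Smc3*, *Stag1* and *Stag2*, their loader and releaser *Nipbl* and *Wapl*, and *Smchd1*, *Setdb1*, *Dnmt3b*, *Wiz* and *Zfp143*) were open in both lists. Accessible promoters say nothing of the level of their transcripts.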

How the data were processed

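The authors profiled 3 cultures of each of 2 NSPC lines by ATAC-seq. Reads (planned at 50 to 60 M per sample per the labels) were processed by the authors with the ENCODE ATAC-seq pipeline, MACS2 and IDR, which pooled the cultures of a line into a conservative and an optimal peak list in mm10. The deposited columns used were an IDR score (540 or more), the fold enrichment against local background, the MACS2 −log10 p, and the summit offset in bases (an other, unscaled value). The deposited −log10 q was not used. Depth per culture is unknown from the lists, and reads of the Cast allele may map less often to mm10.

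The conservative lists were used, with distinct intervals each represented by the summit of highest fold enrichment. Reads and background at a summit were solved from fold enrichment and −log10 p (all whole within 0.05 reads). The scaled parent −log10 p was recomputed after both were divided by the ratio of the lowest backgrounds alone. An overlap of 1 bp made intervals shared. The overlap, distance, read and motif steps were tested on simulated data. No test was made between the lines, and shares carry 95% Wilson intervals. Genes were named when their promoter was open in one list only, when of C type, when nearest to the 3 highest fold enrichments per cluster and list, or when nearest to distal intervals. The members, lists and alternatives were chosen with earlier results of these data known, and NSPC markers and the views of local background, summit position and unique sequence after the lists had been seen. Alternatives were the optimal lists, merged intervals, an IDR score of 830, stricter overlaps, equal list lengths, equal-depth limits, other distances, all gene types and a 50 bp motif window. Sequences on chromosome 18 are not reported here. Python 3.11.15, pandas 2.3.3, NumPy 2.4.6, SciPy 1.17.1 and matplotlib 3.10.9 were used.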

Additional observations from a re-analysis of the deposited data

How the results depend on the processing

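Of 350 values recomputed under the alternatives, 318 stayed close to the reported ones (counts within 1.5 times, motif shares within their Wilson interval) and 32 moved. The order of the genotypes turned in 9 of 186 comparisons of counts, each with lists of equal length. By −log10 p these were all intervals (33 parent and 25 ΔSRR2–18), all specific intervals (19 and 12), *Pcdha* intervals (9 and 8), specific *Pcdha* intervals (4 and 3), A-type *Pcdha* promoters (4 and 2) and all promoters (17 and 10), and by fold enrichment all intervals (33 and 25), specific intervals (19 and 12) and promoters (17 and 14). The ΔSRR2–18 *Pcdhb* intervals (reported 3) numbered 6 in the optimal lists and 1 at an IDR score of 830. The gap between 10 parent and 2 ΔSRR2–18 *Pcdhb* promoters kept its direction, at 10 and 4 in the optimal lists. The parent count was 6 with both lists held to an equal-depth −log10 p of 50, and the ΔSRR2–18 count was 0 at an IDR score of 830, 0 with lists made equally long by −log10 p and 1 when made so by fold enrichment. The A-type *Pcdha* count was 2 in the parent at a promoter distance of 500 bp (reported 4) and 2 in ΔSRR2–18 with equal length by −log10 p (reported 6). Parent-only *Pcdha* intervals (reported 1) numbered 0 in the optimal lists, at equal depth of 50, within 10 kb and with any gene type, 3 with lists of equal length by fold enrichment, and 4 when −log10 p set the length. Parent-only *Pcdhg* intervals (reported 2) numbered 5 with equal length by fold enrichment, 1 within 10 kb and 0 with any gene type. ΔSRR2–18-only intervals numbered 10 in all (reported 16) and 7 in *Pcdhg* (reported 12) with any gene type, 8 in *Pcdha* (reported 4) in the optimal lists, and 1 in *Pcdhb* (reported 0) in the optimal lists and at equal depth of 50. Apart from the assignment to other gene types, which takes intervals from the protocadherin genes by construction, the cause was not tested. No paired analysis was possible because the lists are pooled over the cultures, and for the same reason no culture could be left out.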

Other observations

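Other genes inside the clusters had intervals of their own. *Taf7*, which encodes a subunit of the general transcription factor TFIID and lies between the β and γ genes, had a promoter interval in both lists, at a fold enrichment of 24.1 in the parent and 22.6 in ΔSRR2–18, ranked by −log10 p in the top 9.56% and the top 6.34%. Nearest to *Slc25a2*, a mitochondrial carrier gene, the parent list alone held an interval 19871 bp past the TSS (11.2-fold). The optimal list of ΔSRR2–18 added a promoter interval at *Pcdha5* (4.60-fold) and one 41.5 kb past *Pcdhgc5* (4.79-fold), neither of which overlapped the parent conservative list.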
